A study of Homo sapiens with 5 samples.

Results

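The AP-1 subunit genes are the 10 genes FOS, FOSB, FOSL1, FOSL2, JUN, JUNB, JUND, ATF3, BATF and BATF3, taken from a fixed list of names and present once each among the 20033 protein-coding genes of the annotation (GENCODE release 44, hg38). They were examined in TEAD4 ChIP-seq data of LX-2 cells, an immortalized human hepatic stellate cell (HSC) line used as a model of myofibroblastic HSCs. A peak was given to a gene when its summit, the position of highest signal, lay in the gene body or within 50 kb of any transcription start site (TSS) of the gene. By this rule 33 of the 21113 peaks belonged to the 10 genes, and no peak belonged to more than 1 of them. All samples came from LX-2 cells that had received the vehicle DMSO, 3 of them immunoprecipitated with an anti-TEAD4 antibody and 2 of them input chromatin. The authors left replicate 2 out and made a single list from replicates 1 and 3, so no TEAD4-depleted sample and no other treatment was compared, and the list holds no value per replicate. Gene expression was not part of these data.

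AP-1 is a family of dimers of basic leucine zipper (bZIP) proteins. JUN proteins pair with each other or with FOS proteins, while ATF3 and the BATF proteins join JUN partners, and the dimers bind the AP-1 motif or the related cAMP response element (CRE). TEAD4 is a DNA-binding partner of the co-activators YAP1 and TAZ, and TEAD and AP-1 factors are known to occupy many enhancers together in fibroblasts and other adherent cells. Most AP-1 subunit genes are themselves rapidly induced by growth factors and stress.

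Sequences from the reference genome show where the TEAD motif (ACATTCC, or GGAATGT on the other strand) and the AP-1 motif (TGACTCA, or TGAGTCA on the other strand) lay in these peaks. Each run covers 100 bp on either side of the summit on the plus strand of hg38, with both motifs in capitals. The 5 peaks with a TEAD motif are shown first, since they hold the full motif as it was searched for.
FOSL1, 2.9 kb upstream, chr11:65903232-65903432: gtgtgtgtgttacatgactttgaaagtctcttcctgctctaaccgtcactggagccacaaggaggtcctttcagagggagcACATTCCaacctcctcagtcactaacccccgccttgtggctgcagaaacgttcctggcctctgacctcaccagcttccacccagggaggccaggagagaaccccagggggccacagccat
FOSL2, 5.6 kb upstream, chr2:28387143-28387343: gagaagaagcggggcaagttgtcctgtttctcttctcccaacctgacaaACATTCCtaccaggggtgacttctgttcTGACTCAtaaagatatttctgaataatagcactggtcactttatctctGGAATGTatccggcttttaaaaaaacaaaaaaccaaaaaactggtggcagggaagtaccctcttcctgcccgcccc
FOSL2, 4.1 kb downstream, chr2:28396885-28397085: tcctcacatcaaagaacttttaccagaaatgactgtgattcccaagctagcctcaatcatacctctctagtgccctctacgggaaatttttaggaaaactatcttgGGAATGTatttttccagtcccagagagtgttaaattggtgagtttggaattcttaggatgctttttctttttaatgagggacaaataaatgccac
JUN, 31.9 kb upstream, chr1:58815816-58816016: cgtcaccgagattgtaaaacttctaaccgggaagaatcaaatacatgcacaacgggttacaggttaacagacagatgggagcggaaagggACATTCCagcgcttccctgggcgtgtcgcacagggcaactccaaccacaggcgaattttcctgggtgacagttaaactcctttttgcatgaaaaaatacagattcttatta
BATF, 38.6 kb downstream, chr14:75561012-75561212: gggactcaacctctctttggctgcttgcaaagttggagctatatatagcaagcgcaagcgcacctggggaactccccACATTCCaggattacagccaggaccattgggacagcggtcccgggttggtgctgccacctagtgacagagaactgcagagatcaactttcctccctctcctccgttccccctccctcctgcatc

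Of the peaks with an AP-1 motif and no TEAD motif, 4 are shown. They were chosen because the motif was in the strongest peak of the gene (FOSB and BATF3), lay over the summit (FOS) or was present more than once (FOSL1).
FOS, 44.1 kb upstream, chr14:75234624-75234824: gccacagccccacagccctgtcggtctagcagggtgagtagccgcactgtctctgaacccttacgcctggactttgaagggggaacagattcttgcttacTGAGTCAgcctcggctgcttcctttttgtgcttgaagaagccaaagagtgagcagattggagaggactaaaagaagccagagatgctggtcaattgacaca
FOSB, 12.1 kb upstream, chr19:45455833-45456033: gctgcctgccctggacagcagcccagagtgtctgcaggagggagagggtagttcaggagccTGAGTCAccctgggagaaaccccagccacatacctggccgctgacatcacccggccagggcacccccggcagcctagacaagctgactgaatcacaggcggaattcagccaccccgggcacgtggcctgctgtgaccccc
FOSL1, 15.5 kb upstream, chr11:65915779-65915979: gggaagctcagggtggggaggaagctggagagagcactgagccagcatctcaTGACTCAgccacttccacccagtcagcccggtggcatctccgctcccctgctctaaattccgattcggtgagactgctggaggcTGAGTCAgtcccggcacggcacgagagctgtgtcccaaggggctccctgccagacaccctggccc
BATF3, 21.9 kb upstream, chr1:212721653-212721853: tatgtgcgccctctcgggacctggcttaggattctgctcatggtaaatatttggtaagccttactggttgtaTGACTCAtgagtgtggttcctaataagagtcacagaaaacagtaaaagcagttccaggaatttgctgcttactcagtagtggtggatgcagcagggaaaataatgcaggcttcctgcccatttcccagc

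The list of 21113 peaks gives for each peak a signal value (the peak caller's measure of its height, without unit here), an IDR score (irreproducible discovery rate, scaled so that 1000 is the most reproducible) and a q-value. Signal values ran from 6.57 to 1074 with a median of 68.1 and quartiles of 46.1 and 114. The highest IDR score was held by 76.1% of peaks, and q exceeded 0.05 in 3.19%. The depth of the libraries is unknown, so 95% Wilson intervals given for shares cover counting error only.

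All 10 AP-1 subunit genes had at least 1 TEAD4 peak (10 of 10, Wilson interval 72.2 to 100%), against 56.2% of protein-coding genes by the same rule. The number per gene ran from 1 to 5 with a median of 3.5, and the median over protein-coding genes was 1. FOSL2, JUN and ATF3 had 5 peaks each, a number that 7.19% of protein-coding genes reached or exceeded. FOSB and FOSL1 had 4 peaks each, FOS and BATF3 had 3, JUND had 2, and JUNB and BATF had 1. The windows of the 10 genes were not longer than usual, with a median of 101 kb against 112 kb over protein-coding genes. They held 3.08 peaks per 100 kb, and the windows of all protein-coding genes together held 0.937. Closest to the 50 kb limit on its inner side was the peak of JUND 47012 bp from its TSS, with a signal value of 58.8. Just beyond the limit were 2 summits near ATF3, at 52046 and 52478 bp with values of 81.1 and 46.8, and 1 near JUN, at 56437 bp with 92.6. The summit 52478 bp from ATF3 was inside the window of BATF3, and is counted among the 33 as the BATF3 peak 32.2 kb downstream. The shares are descriptions of 1 list of peaks in a set of genes chosen by name, with earlier results of these data known.

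Distances to the starts of the genes were near those of other genes under the same rule. Of the 33 summits, 24 were more than 10 kb from any TSS of their gene (72.7%, interval 55.8 to 84.9%), against 68.0% of the 28851 pairs of a gene and a peak over all protein-coding genes. By position, 19 were upstream of the canonical TSS (the start of the transcript that the annotation marks as canonical) and 14 downstream. In 9 cases the summit was in an intron of the gene, and in no case in one of its exons. Of the others, 12 lay in no annotated gene. A summit within 2.5 kb of a TSS was present at FOSB, FOSL2, JUNB and ATF3 (4 of 10 genes, interval 16.8 to 68.7%), against 16.6% of protein-coding genes. The latter were 3333 genes, among the 11252 that had any peak by the rule. Counted over peaks, 5 of the 33 summits were that close (15.2%, interval 6.65 to 30.9%), against 15.4% of the 28851 pairs. FOS and JUN, the genes of the classical AP-1 dimer, had no summit that close, and the nearest was 14215 bp from a TSS of FOS and 20684 bp from one of JUN. For 24 of the 33 peaks the nearest protein-coding TSS was that of the AP-1 subunit gene itself. Such a peak was present at 8 of the 10 genes, all but JUNB and BATF, against 32.8% of protein-coding genes. These were 6567 genes, among the 11252 that had any peak by the rule, as all 10 AP-1 subunit genes did. Shares over all pairs were not counted for peaks nearest to their own gene, nor for summits upstream, in introns or in no annotated gene.

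Signal values of the 33 peaks spread across the range of the list. Their median was 63.4 (95% interval from order statistics 45.9 to 91.2), which includes the list median of 68.1, and the quartiles were 39.4 and 121. Above the list median were 15 peaks, of which 9 exceeded the upper quartile of the list, while 11 were under its lower quartile. The 5 peaks within 2.5 kb of a TSS all had signal values below the list median (from 34.3 to 67.4), and 2 of the 5 had the highest IDR score. Among the 3983 peaks of the list within 2.5 kb of any protein-coding TSS, 54.5% were below the list median and 72.4% had the highest IDR score. Of the 28 peaks farther away, 15 exceeded the median. The strongest peaks of 6 genes, FOS, FOSB, FOSL1, JUN, JUND and BATF, exceeded the upper quartile of the list (6 of 10). The strongest peak did so at 23.8% of protein-coding genes, and at 42.3% of those with a peak. Over the 10 genes the median of the strongest peak was 138, against 97.5 over protein-coding genes with a peak, in windows that held more peaks.

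The FOS family genes, whose products bind DNA only as partners of other bZIP proteins, held 16 peaks, with a median signal value of 45.0 and 5 above the list median. FOS (chr14:75278826-75282230), the prototype member, had 3 peaks. The strongest was 15.6 kb downstream of the TSS with a signal value of 154, at or above 85.2% of the list. It lay in an exon of the long non-coding RNA gene LINC01220, as did a second, weaker summit 761 bp away, at or above 21.9% of the list. The third peak of FOS, 44.1 kb upstream and with a value of 63.4, was the one with an AP-1 motif over its summit.

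FOSB (chr19:45467995-45475179) had the strongest peak of the 10 genes. Its signal value was 328, at or above 97.3% of the list, and the summit was 12.1 kb upstream of FOSB. This summit was in an intron of ERCC1, a DNA repair gene whose own nearest TSS was 5208 bp away, and an AP-1 motif was centred 36 bp from it. The other peaks of FOSB were weaker, at 46.9 in an intron at 1.2 kb (633 bp from a TSS), 36.3 at 28.0 kb upstream and 31.2 at 10.9 kb downstream. The last of these was 71 bp from a TSS of ERCC1, so that 3 of the 4 peaks were closer to a start of ERCC1 than to one of FOSB.

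FOSL1 (chr11:65892049-65900573), which encodes FRA-1, a subunit abundant in migrating and mesenchymal cells, had 2 strong and 2 weak peaks. The strongest had a signal value of 228, at or above 93.1% of the list, and lay 2759 bp upstream of the nearest TSS, just outside the 2.5 kb limit used above. Its TEAD motif was centred 16 bp from the summit, and no AP-1 motif was found within 100 bp. The peak 15.5 kb upstream, at 160, showed the reverse, with 2 AP-1 motifs separated by 77 bases and no TEAD motif. That summit was closer to C11orf68, at 2481 bp. The weak peaks, at 38.3 and 30.0, had neither motif, and the latter was 4 bp from a TSS of FIBP.

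FOSL2 (chr2:28392448-28417317), which encodes FRA-2, had many peaks but none above the upper quartile of the list. The strongest, at 74.1 and 5.6 kb upstream, was in an intron of the antisense gene FOSL2-AS1. It was the single peak among the 33 that held both motifs, in the order TEAD, AP-1, TEAD with 21 and 41 bases between them. Both motifs were present in 4.49% of all peaks, near the 1 of 33 (3.03%) here. The other 4 peaks of FOSL2 were in its introns. The summit at 4.1 kb had a TEAD motif centred 9 bp away and a value of 39.4, and the summit at 1.8 kb had neither motif and a value of 34.3. The remaining pair, 559 bp apart, had AP-1 motifs and values of 45.9 and 6.88. The weaker of this pair, at 16.0 kb, had a q-value of 0.841 together with the highest IDR score.

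The JUN family genes, whose products can form dimers with each other as well as with FOS proteins, held 8 peaks with a median signal value of 107, and 6 of them exceeded the list median. All 5 peaks of JUN (chr1:58776845-58784048) were among these 6. Upstream of JUN, the summits 31.2 and 31.9 kb away had values of 184 and 83.5 and were 685 bp apart, and a summit 46.1 kb away had a value of 92.8. All 3 lay in LINC01135, a long non-coding RNA gene. Downstream, the summits at 20.7 and 28.3 kb had values of 121 and 145. JUN was thus flanked by peaks on both sides, none of them within 20 kb of its TSSs, and each had the highest IDR score. The 1 TEAD motif, at the summit 31.9 kb upstream, was centred 7 bp from it, in the weakest of the 5 peaks.

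JUNB (chr19:12791486-12793315), often described as a weaker activator than JUN, had 1 peak of 53.2 at 2.2 kb from its TSS. The summit was 358 bp beyond the 3′ end of this short gene and in an intron of HOOK2, whose TSS was closer, at 1091 bp. JUND (chr19:18279694-18281622), the member with the most constant expression across cell types, had a peak of 171 at 10.5 kb upstream, at or above 87.6% of the list. Its second peak, 47.0 kb upstream with a value of 58.8, was closer to LSM4, a gene for an RNA-binding protein. No peak of JUNB or JUND held either full motif, though the 6-base core of the TEAD motif (CATTCC) was centred 6.5 bp from the JUND summit of 171.

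ATF3, BATF and BATF3 encode bZIP proteins that join JUN partners, ATF3 being a stress-induced factor and the BATF proteins being best known from immune cells. Together they had 9 peaks, with a median of 67.4 and 4 above the list median. ATF3 (chr1:212565334-212620777) had 5 peaks, and all were closest to its own TSSs. A summit 217 bp from a TSS, close to the canonical start, had a signal value of 67.4. Inside the gene, upstream of that start, the summits 12.4 and 12.8 kb away were 336 bp apart with values of 91.2 and 47.6, and the summit 28.6 kb away had 68.4. The weakest, at 34.8, was 3471 bp from the most distal TSS. ATF3 had neither motif at any of its 5 peaks.

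BATF (chr14:75522455-75546993) had 1 peak of 121 at 38.6 kb downstream, with a TEAD motif centred 20 bp from the summit. The TSS of FLVCR2, a membrane transporter gene, was closer to it, at 17508 bp. BATF3 (chr1:212686417-212699840) had 3 peaks, of which the strongest, at 88.0 and 21.9 kb upstream, had an AP-1 motif centred 25 bp from the summit. A second summit 199 bp away had a value of 13.3 and a q-value of 0.0981, again with the highest IDR score, and the intervals of these peaks overlapped. The third, 32.2 kb downstream at 46.8, had an AP-1 motif at the edge of the window, centred 94 bp away. At BATF and BATF3 no summit was within 2.5 kb of a TSS.

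Motifs were read within 100 bp of each summit. A TEAD motif was present in 5 of the 33 peaks (15.2%, interval 6.65 to 30.9%), against 23.0% of all peaks, and an AP-1 motif in 8 (24.2%, 12.8 to 41.0%), against 25.4%. Both intervals included the share of the whole list, so no departure from it was detectable with 33 peaks. The CRE (TGACGTCA) was in 0 of 33 (Wilson interval up to 10.4%; 3 counts, the limit set for a count of 0, would be 9.09%), and in 0.450% of all peaks. Neither TEAD nor AP-1 motif was present in 21 peaks (63.6%, interval 46.6 to 77.8%), against 56.1% of all peaks. By gene, FOSL1, FOSL2, JUN and BATF had a peak with a TEAD motif (4 of 10), against 24.2% of protein-coding genes. An AP-1 motif was present in a peak of FOS, FOSB, FOSL1, FOSL2 and BATF3 (5 of 10), against 23.9% of protein-coding genes. The protein-coding genes with a motif numbered 4851 for TEAD and 4791 for AP-1, among the 11252 that had any peak by the rule. All 10 AP-1 subunit genes had a peak. JUNB, JUND and ATF3 had neither. A gene with more peaks has more chances to hold a motif, and the 10 genes had more peaks than most.

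Motif positions differed from peak to peak. All 6 TEAD motifs, in 5 peaks, were centred within 50 bp of the summit, as were 7 of the 9 AP-1 motifs, in 8 peaks. The median signal value was 83.5 for the 5 peaks with a TEAD motif and 56.0 for the 28 without, with ranges of 39.4 to 228 and 6.88 to 328 that overlapped. In the whole list these medians were 82.2 and 64.6. The base composition of the peaks was high in G and C, with a median GC content of 55.7% (33.8 to 77.6%), against 44.8% over all peaks and 45.3% over the 16031 peaks in a window of any protein-coding gene. The part of base composition in the motif shares was not tested.

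Some summits had a close neighbour. Another summit lay within 1 kb of 10 of the 33 summits (30.3%, interval 17.4 to 47.3%), against 20.1% of all peaks, and the interval included that share. These were 1 pair each at FOS, FOSL2, JUN, ATF3 and BATF3, with distances from 199 bp at BATF3 to 761 bp at FOS. In each pair 1 summit had the higher signal value, and at FOS, JUN, ATF3 and BATF3 it was the strongest of the gene. A width of 444 bp, the most common in the list, was held by 20 of the 33 peaks, with a median signal value of 44.9, and the 13 of other widths had a median of 145. Over all peaks these medians were 51.0 and 133.

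Starts of the genes were also read for motifs in the RefSeq promoter sequences (GRCh38), which run from 250 bases before to 50 bases after each start. The 9 promoters of 8 genes, all but FOSL1 and BATF3, were matched by symbol. The AP-1 motif was present at FOSL2 (4.95% of 35116 promoters) and the CRE at JUND (1.85%). The TEAD motif was present in none (3.46% of promoters), nor was the CArG box, the site of serum response factor (1.29%). A lack of a match says only that these letters are not in this window.

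Related genes were counted by the same rule. Of 42 other bZIP genes, such as those of the CREB, C/EBP, MAF and NRF families, 28 had a peak (66.7%, interval 51.6 to 79.0%), 14 had a summit within 2.5 kb of a TSS, and 8 had at least 5 peaks, led by BACH1 with 9, CREB1 with 8 and CREB3L2 with 7. Of 23 genes for kinases of the JNK, ERK and p38 cascades, which phosphorylate AP-1 subunits or act upstream, 20 had a peak (87.0%, 67.9 to 95.5%) and 6 a summit within 2.5 kb. Their windows had a median of 149 kb, against 101 kb at the AP-1 subunit genes. The median was 1 peak per kinase gene, and 1 of the 23 genes had at least 5 peaks. The most, 6, were in the 691 kb window of MAPK10, which encodes JNK3, followed by 4 each at MAPK8, which encodes JNK1, MAP3K5 and MAP2K3. Of 20 other immediate-early genes, 15 had a peak (75.0%, 53.1 to 88.8%) and 11 a summit within 2.5 kb (55.0%, 34.2 to 74.2%), with 9 peaks at IER3 and 7 each at ZFP36 and DUSP1. For the share of genes with a peak, the interval of the AP-1 subunit genes (72.2 to 100%) overlapped those of all 3 lists. The 5 immediate-early genes with 0 peaks, named after their values were seen, were EGR1, EGR2, EGR4, NR4A2 and KLF4.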

How the data were processed

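TEAD4 ChIP-seq was made by the authors from LX-2 cells treated with DMSO. They mapped reads to hg38 with Chromap, applied the ENCODE IDR pipeline and kept replicates 1 and 3, which alone were concordant enough by it. The deposited list has 10 columns. Its score is the scaled IDR, its signal value and −log10 q-value are those of the authors' peak caller (not named in the sources used here), and its last column is the summit offset. What each column means was inferred from the layout and its values. The offset may count from 0 or 1, which could shift a summit by 1 bp. Depth per sample is unknown and there is no spread between replicates, so no test over samples was made.

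Summits were assigned to genes of GENCODE release 44, whose chromosomes hold every peak. The 10 genes and the lists of related genes were chosen with earlier results of these data known. Every gene of the list was named, with the 3 genes with most peaks of each related list (ties broken by summed signal value, and MAP2K3, tied in number, named as well) and neighbours with a nearer TSS. Both strands were scanned for motifs up to 100 bp from each summit. Shares carry 95% Wilson intervals, for counting error over peaks or genes that are not fully independent. Promoters came from RefSeq (GRCh38). Alternatives changed the peaks used, the distance, the TSSs, the assignment, the motif and its window. The code was tested on simulated data. Software was scipy 1.17.1, pandas 2.3.3, numpy 2.4.6 and matplotlib 3.10.9 in Python 3.11.15.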

Additional observations from a re-analysis of the deposited data

How the results depend on the processing

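Of 54 alternatives for the 6 results over the AP-1 subunit genes, 41 left counts within 1.5 times the reported count, or the median signal value within its interval, and 13 did not. The distance to a TSS was the choice changed in 6 of the 13. At 10 kb, 5 genes had a peak (34.0% of protein-coding genes), with 14 peaks, 3 of them with a TEAD motif and 3 with an AP-1 motif. TEAD motif peaks numbered 3 of 25 at 25 kb and 8 of 47 at 100 kb. With only peaks above the median signal value, 15 peaks remained, 4 with an AP-1 motif, with a median of 121, and 0 genes had a summit within 2.5 kb of a TSS (8.55% of protein-coding genes). With only the highest IDR score this number was 2 (12.6%). The 6-base core CATTCC was in 14 peaks, against 46.8% of all peaks. A 250 bp motif window gave 13 AP-1 motif peaks, and the share of all peaks at that window was not counted. Of 80 alternatives for the number of peaks at a single gene, 48 stayed within 1.5 times and 32 did not.

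No paired analysis was possible because values per replicate are not in the list, and leaving out a replicate was not possible either. How the peaks vary between replicates, and how depth limits their detection, is unknown. Assignment by distance does not show which gene a peak acts on.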
